A study of Mus musculus with 27 samples.

Results

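The 8 genes described here encode cadherins, the calcium-dependent adhesion receptors of the cell surface, and were taken as every probe annotated to Cdh2, Cdh4, Cdh6, Cdh8, Cdh10, Cdh11, Cdh12 or Cdh13 on a mouse Illumina BeadChip. They are 8 of the 19057 genes named on the array and account for 22 of its 45281 probes, with 6 probes for Cdh8, 3 each for Cdh10, Cdh11 and Cdh13, 2 each for Cdh2, Cdh4 and Cdh12, and 1 for Cdh6. A probe was kept for testing when its detection p, the deposited measure of signal over the negative control beads, was under 0.01 on at least 5 of the 27 arrays. Of the 22 probes 18 were kept, with at least 1 for each gene, and 20498 probes were kept in all. Probes of a gene are numbered from the brightest kept probe down, and they share a target, so they are not replicates of each other.

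Cadherins bind the same or a related cadherin on the neighbouring cell through their outer repeats, and the classical members hold catenins on the inner side, which link the contact to actin. Type I members such as Cdh2 (N-cadherin) and Cdh4 (R-cadherin) keep neuroepithelial and neuronal contacts together, and the type II members Cdh6, Cdh8, Cdh10, Cdh11 and Cdh12 are expressed in area- and layer-dependent patterns in the developing cortex. Cdh13 (T-cadherin) is the exception in structure, since it is anchored by a lipid and lacks the catenin-binding tail.

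The 27 samples fall into 5 groups. The label Tbr2 conditional knockout (cKO) of embryonic cortex covers 5 arrays at embryonic day 13 (E13) and 6 arrays at E16. Tbr2 is the T-box factor encoded by Eomes and marks the intermediate progenitors that produce glutamatergic cortical neurons. The samples called embryo comprise 6 arrays at E13 and 5 at E16, their labels name neither tissue nor genotype, and their columns carry the abbreviation WT. The last group holds 5 arrays of GFP-positive neurons of the Tbr2 lineage, isolated by flow sorting from cortex at postnatal day 2 (P2). The titles of all embryonic samples mark them as re-analysed. No source used here gives the Cre driver, the deleted part of Eomes, the strain or the number of animals behind an array. Nothing in the labels says that arrays of a group came from separate animals, so the p-values measure the spread between these samples, which may be technical.

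Values are background-corrected, quantile-normalised signals on the log2 scale. A brighter probe does not mean a more abundant transcript, so levels are compared between arrays and never between probes. A probe called above background on an array had a detection p under 0.01 there. Tests were limma fits across all 20498 kept probes, with Benjamini-Hochberg adjusted p-values and a threshold of 0.05. The number of arrays limits the precision.

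Between 36.9% and 42.9% of all probes were above background per array. Both Eomes probes were bright in the samples labelled cKO: they differed from the embryo groups by 0.27 ± 0.20 and 0.45 ± 0.22 (log2, SE) at E13 and by 0.59 ± 0.20 and 0.44 ± 0.22 at E16, with limma adjusted p between 0.36 and 0.87. Where these probes lie relative to the deletion is not known, so they do not check the label. On the second principal component of the 22 embryonic arrays, computed over 10655 genes without the cadherins, array 2 of E13 cKO lay at 10.6, against -26.2 to -2.55 for the other 4 arrays of its group and 5.14 to 15.8 for E13 embryo. Array 3 of E16 cKO lay at 5.81, against -19.6 to -2.64 for the other 5 of its group and -4.33 to 12.2 for E16 embryo. Results that rest on these 2 arrays are given with and without them. The embryo, cKO and P2 signals were deposited in 3 separate tables, so that genotype, or age and sort, cannot be told apart from the table, whereas each stage comparison lies within 1 table.

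RefSeq promoter sequences (GRCm38.p6, windows of 300 bases around an annotated start) were found for 4 of the 8 genes. Each window covers 1 start, and other starts were not searched. All 4 windows lie inside the annotated spans of their genes (build not named). The span of Cdh12 begins at 20448878 on chromosome 15 and that of Cdh10 at 18818869. That of Cdh8, on the minus strand, begins at 99417666 on chromosome 8. The windows of Cdh8, Cdh10 and Cdh12 are shown because these genes differed most between the embryonic groups. Capitals mark each CANNTG, the E-box letters read by basic helix-loop-helix factors. Each sequence is given 5′ to 3′ on the strand of its gene. The Cdh8 window is chr8:99416422-99416721 on the minus strand, the Cdh10 window is chr15:18820079-18820378 on the plus strand and the Cdh12 window is chr15:21111202-21111501 on the plus strand.
Cdh8: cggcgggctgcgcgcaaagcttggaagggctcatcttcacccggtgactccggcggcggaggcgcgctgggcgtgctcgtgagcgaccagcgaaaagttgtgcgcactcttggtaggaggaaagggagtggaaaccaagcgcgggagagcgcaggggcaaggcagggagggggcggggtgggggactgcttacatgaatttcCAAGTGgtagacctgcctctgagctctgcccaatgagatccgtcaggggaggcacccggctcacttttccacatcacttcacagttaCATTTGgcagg
Cdh10: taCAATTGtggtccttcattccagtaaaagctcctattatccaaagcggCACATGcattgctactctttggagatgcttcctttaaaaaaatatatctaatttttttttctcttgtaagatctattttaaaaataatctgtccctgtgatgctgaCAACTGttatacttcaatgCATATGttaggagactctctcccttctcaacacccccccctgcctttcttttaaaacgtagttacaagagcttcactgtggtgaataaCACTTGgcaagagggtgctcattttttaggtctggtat
Cdh12: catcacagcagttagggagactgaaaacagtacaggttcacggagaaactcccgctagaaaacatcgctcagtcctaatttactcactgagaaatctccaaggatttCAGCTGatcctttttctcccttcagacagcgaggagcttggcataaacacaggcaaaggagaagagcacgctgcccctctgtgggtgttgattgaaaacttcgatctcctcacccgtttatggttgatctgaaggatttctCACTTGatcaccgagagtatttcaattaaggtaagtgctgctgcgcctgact
E-box letters occurred 2 times in the Cdh8 window, 5 times in that of Cdh10 and 2 times in that of Cdh12, and 72.3% of 32851 RefSeq promoters hold at least 1 on either strand. The Cdh6 promoter held 1. The T-box core GGTGTGA was searched on both strands because Eomes is a T-box factor. It was in none of the 4 windows, and in 3.98% of all promoters. The longer letters AGGTGTGA, which contain that core, were in none of the 4 and in 1.28% of all. The CAGCTG form of the E-box was found only in the Cdh12 window among the 4, and in 16.3% of all promoters. TATAAA was in none of the 4 and in 13.6% of all. The GC box GGGCGG occurred 2 times in the Cdh6 window and 1 time in the Cdh8 window, and 35.7% of all promoters hold it. Cdh8 had 21 CG pairs in its 300 bases, Cdh12 9, Cdh6 8 and Cdh10 2, against a median of 7 over all promoters. 

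**Figure D1:**
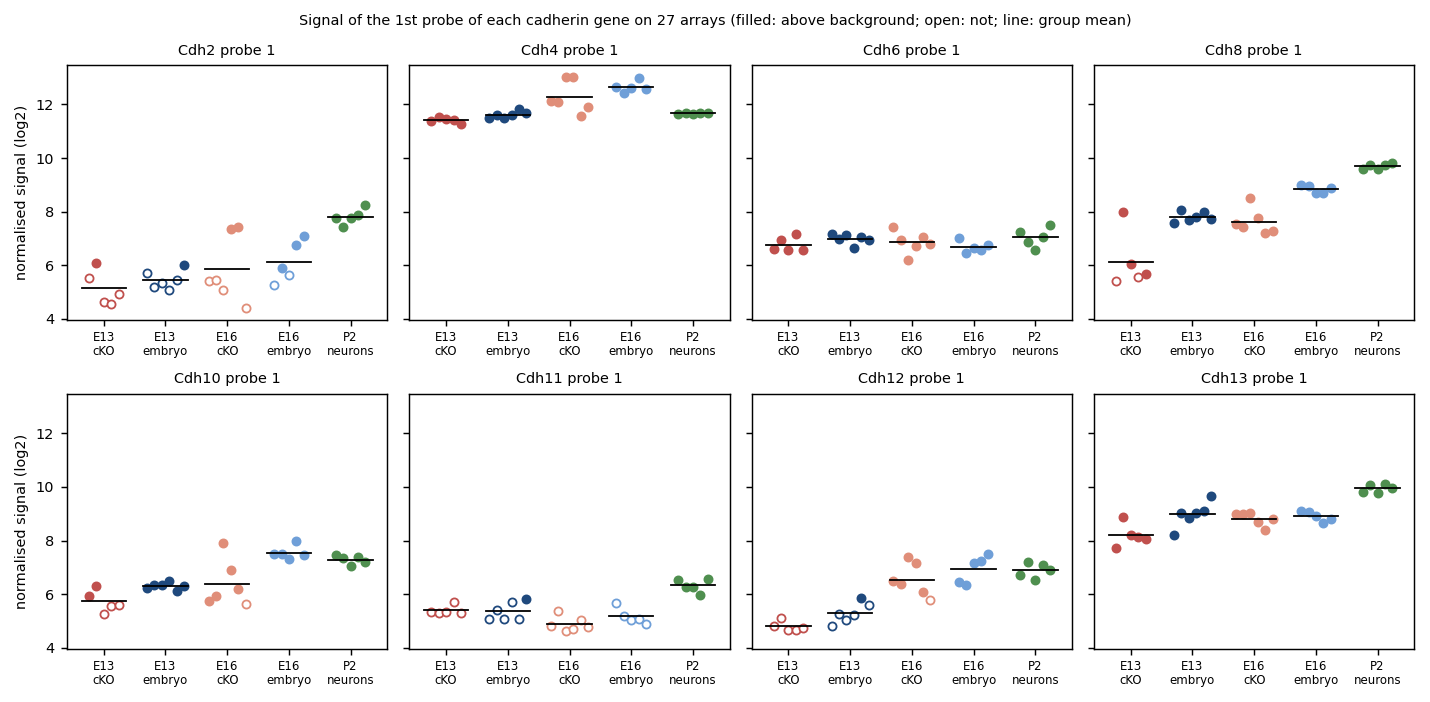
Normalised signal (log2, vertical axis) of the brightest kept probe of each cadherin gene on every array, by group (horizontal axis). Filled points are above background, open points are not, and the line is the group mean. Cdh8 was lower on 4 of the 5 E13 cKO arrays than on any E13 embryo array, and Cdh12 was above background on 5 of 5 E16 embryo arrays and 1 of 6 E13 embryo arrays.

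The first comparison asks how the cadherins differ in cortex labelled as lacking Tbr2. At E13, 4 of the 18 probes were lower in cKO, 3 of Cdh8 and 1 of Cdh13, and 0 were higher. Lower calls made up 0.566% of all kept probes, calls in either direction 1.04%, and higher calls 0.478%. The median change of the 18 probes was -0.41 (log2), against -0.0062 over all kept probes. The 8 genes were chosen with earlier results of these data known. Here and below, their counts and medians beside those of all probes are therefore descriptions and not independent tests. In whole tissue, fewer cells of a type and less RNA per cell cannot be told apart.

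Cdh8, a type II cadherin of cortical and thalamic neurons, differed most. Cdh8 probe 1 gave 5.42, 7.98, 6.03, 5.56 and 5.68 on the 5 E13 cKO arrays, against a lowest value of 7.59, a median of 7.77 and a highest of 8.08 on the 6 E13 embryo arrays. It was above background on 3 of the 5 cKO arrays. On 4 of the 5 it was below every embryo array, and array 2 lay inside the embryo range. The change was -1.68 ± 0.29 (log2, SE; 3.21-fold lower; limma adjusted p = 0.0046). Cdh8 probe 2 read 5.74, 7.78, 5.77, 5.78 and 5.56 in E13 cKO, against 7.39, 7.61 and 7.76 as the lowest, median and highest value in E13 embryo. It was lower (-1.47 ± 0.28, adjusted p = 0.011) with 2 of 5 cKO arrays above background, and array 2 stood above all embryo arrays. This call was lost without array 1 or array 4 of E13 cKO (adjusted p up to 0.059). Cdh8 probe 3 read 5.18, 7.68, 4.56, 5.18 and 5.04 in E13 cKO and was above background only on array 2. In E13 embryo it was above background on all 6 arrays, between 7.16 and 8.05, and the fitted change was -2.06 ± 0.38 (adjusted p = 0.0080), given without a fold because most cKO arrays were below background. Cdh8 probe 4 was above background on 0 of 5 cKO arrays and 1 of 6 embryo arrays, and its change of -0.55 ± 0.27 did not pass (adjusted p = 0.61).

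The arrays in the fit moved these calls. Fitted on the E13 arrays alone, the 3 Cdh8 probes had an adjusted p of 0.11 each, and 0 of all 20498 probes passed by limma, when 11 of the 18 cadherin probes and 2161 of all had an unadjusted p under 0.05. With array 2 of E13 cKO and array 3 of E16 cKO left out, 7 probes were lower and 0 higher, and Cdh8 probes 1, 2 and 3 changed by -2.14 ± 0.13, -1.88 ± 0.13 and -2.59 ± 0.23 (adjusted p = 3.9e-11, 6.5e-10 and 3.3e-08). That choice was made after seeing the data and removes cKO arrays for lying near embryo arrays, so it favours a difference.

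Cdh13 gave smaller differences. Its probe 1 read 7.73, 8.88, 8.20, 8.14 and 8.07 in E13 cKO, against a lowest of 8.20, a median of 9.03 and a highest of 9.65 in E13 embryo. The groups overlapped in array 2 of cKO, and the change was -0.77 ± 0.19 (1.71-fold lower, limma adjusted p = 0.039). This call was lost when any 1 of 9 of the 11 E13 arrays was left out, with adjusted p between 0.0020 and 0.19 over all such fits, and it was lost in the fit on the E13 arrays alone (adjusted p = 0.21). Cdh13 probes 2 and 3 gave -0.90 ± 0.24 and -0.79 ± 0.22 and did not pass (adjusted p = 0.071 and 0.095). Without the 2 named cKO arrays they gave -1.10 ± 0.23 and -0.95 ± 0.22 (adjusted p = 0.0053 and 0.015).

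The other cadherins did not pass at E13. Cdh10 probe 1, for a type II cadherin of cortical neurons, read 5.93, 6.30, 5.25, 5.56 and 5.62 in E13 cKO, with 2 of 5 arrays above background, against 6.13 to 6.49 in E13 embryo, with 6 of 6. Its change was -0.57 ± 0.27 (adjusted p = 0.58), and -0.71 ± 0.18 without the 2 named arrays (adjusted p = 0.030). Cdh4 probe 1 differed by -0.20 (95% limits -0.57 to 0.17) and Cdh6 by -0.22 (-0.58 to 0.14). Cdh12 probe 1 gave -0.50 ± 0.25 with 0 of 5 cKO and 1 of 6 embryo arrays above background. Cdh2 and Cdh11 were near background in both groups, on at most 1 array above it per probe and group, so a difference was not measurable.

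Markers of some cell types differed between these groups. Of 7 kept genes of a cortical excitatory neuron list, 2 were lower in E13 cKO (Tbr1 and Slc17a7) and 0 higher, and the summed linear signal ran from 21462 to 28678 in E13 cKO and from 28053 to 36142 in E13 embryo. Gbx2, a thalamic factor, was the 1 of 9 kept thalamus and habenula genes that was higher, and the sum of that list was 12441 to 15592 in E13 cKO and 11415 to 14757 in E13 embryo. Insm1 was higher among 6 Tbr2-lineage progenitor genes, whose sum was 13966 to 20241 in E13 cKO and 11502 to 16483 in E13 embryo. Choroid plexus and hem markers summed to 322 to 6398 in E13 cKO and 257 to 616 in E13 embryo, and 0 of 3 passed. Sums for radial glia genes were 3571 to 6100 in E13 cKO and 2693 to 4252 in E13 embryo. Interneuron genes summed to 316 to 3572 in E13 cKO and 288 to 624 in E13 embryo, with medians of 473 and 366. Meningeal genes summed to 89.5 to 511 in E13 cKO and 87.1 to 123 in E13 embryo, with medians of 99.4 and 99.9. Endothelial genes summed to 126 to 439 in E13 cKO and 122 to 144 in E13 embryo, with medians of 133 and 130. Hba-a1 was 203 to 16748 in E13 cKO and 38.2 to 828 in E13 embryo, with medians of 362 and 272. The highest E13 cKO values of these last lists and of Hba-a1 lay far above the group medians. By limma 0 radial glia, interneuron, meningeal or endothelial genes passed, and Hba-a1 did not. The part of these shifts in the Cdh8 and Cdh13 values was not tested.

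**Figure D2:**
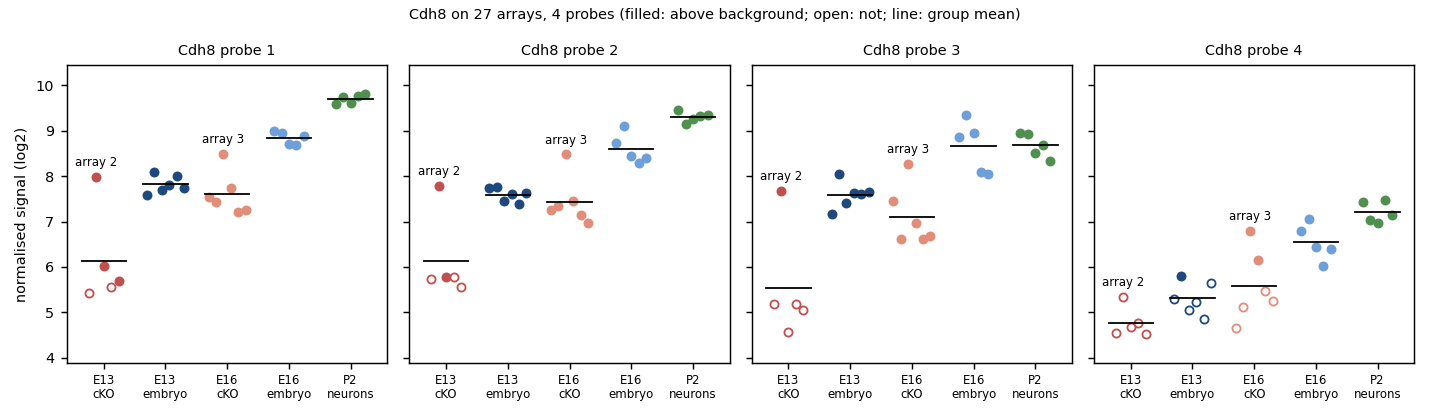
Normalised signal (log2, vertical axis) of the 4 kept Cdh8 probes on every array, by group (horizontal axis). Filled points are above background, open points are not, and lines are group means. Array 2 of E13 cKO lay at 7.98, 7.78 and 7.68 for probes 1 to 3, above the other 4 arrays of its group, and array 3 of E16 cKO was the highest of its group for all 4 probes.

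At E16, 0 of the 18 cadherin probes passed between cKO and embryo, with 6 at an unadjusted p under 0.05 in the limma fit, as had 1283 of all 20498 kept probes. All 6 were lower in cKO, 4 of Cdh8 and 2 of Cdh10. Over all kept probes 0.146% were higher, 0.137% lower and 0.283% called in either direction. The median change of the 18 probes was -0.31 (log2).

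Cdh8 probe 1 read 7.22, 7.49 and 8.49 as the lowest, median and highest of the 6 E16 cKO arrays, against 9.0, 8.96, 8.70, 8.70 and 8.87 in E16 embryo. All 6 cKO arrays were below every embryo array, and the change was -1.23 ± 0.29 (adjusted p = 0.077). Cdh8 probes 2, 3 and 4 gave -1.15 ± 0.28, -1.56 ± 0.38 and -0.97 ± 0.27 (adjusted p = 0.089, 0.089 and 0.14). Cdh10 probe 1 read 5.62, 6.05 and 7.91 as lowest, median and highest in E16 cKO, against 7.50, 7.51, 7.32, 7.97 and 7.46 in E16 embryo. Array 3 of cKO lay among the embryo values and the other 5 below them, with a change of -1.17 ± 0.27 (adjusted p = 0.058). Cdh10 probe 2 was above background on 0 of 6 cKO and 2 of 5 embryo arrays and changed by -0.66 ± 0.18 (adjusted p = 0.13).

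These 6 probes all passed when array 3 of E16 cKO was left out, and 4 probes passed when array 2 of E13 cKO was. Without it and array 2 of E13 cKO, Cdh8 probe 1 changed by -1.41 ± 0.12 and Cdh10 probe 1 by -1.48 ± 0.18 (adjusted p = 6.8e-08 and 1.1e-05), again a choice made after seeing the data that favours a difference. With each table normalised separately, 4 probes were lower (3 of Cdh8 and 1 of Cdh10, adjusted p between 0.036 and 0.049), and with 1 probe per gene Cdh10 passed (adjusted p = 0.040). Fitted on the E16 arrays alone, 0 of all kept probes passed by limma. There Cdh8 probes 1, 2 and 3 had an adjusted p of 0.094, 0.19 and 0.19, and Cdh10 probe 1 of 0.45.

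The remaining cadherins gave no call at E16. Cdh4 probe 1 changed by -0.37 (95% limits -0.74 to 0.00077; adjusted p = 0.80) and Cdh13 probe 1 by -0.092 (-0.48 to 0.30). Cdh12 probe 1 changed by -0.40 (-0.90 to 0.11) and Cdh6 by 0.16 (-0.20 to 0.52). Cdh2 probe 1 was above background on 2 of 6 cKO and 3 of 5 embryo arrays and its limits were wide, from -1.16 to 0.60. Both kept Cdh11 probes were below background on all E16 arrays. Among markers at E16, 0 of 7 cortical excitatory genes passed, with sums of 23900 to 33657 in E16 cKO and 27281 to 33059 in E16 embryo, and Gbx2 and Pou4f1 were higher among the 9 thalamus and habenula genes, whose sums were 8442 to 12268 in E16 cKO and 8846 to 12231 in E16 embryo.

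**Figure D3:**
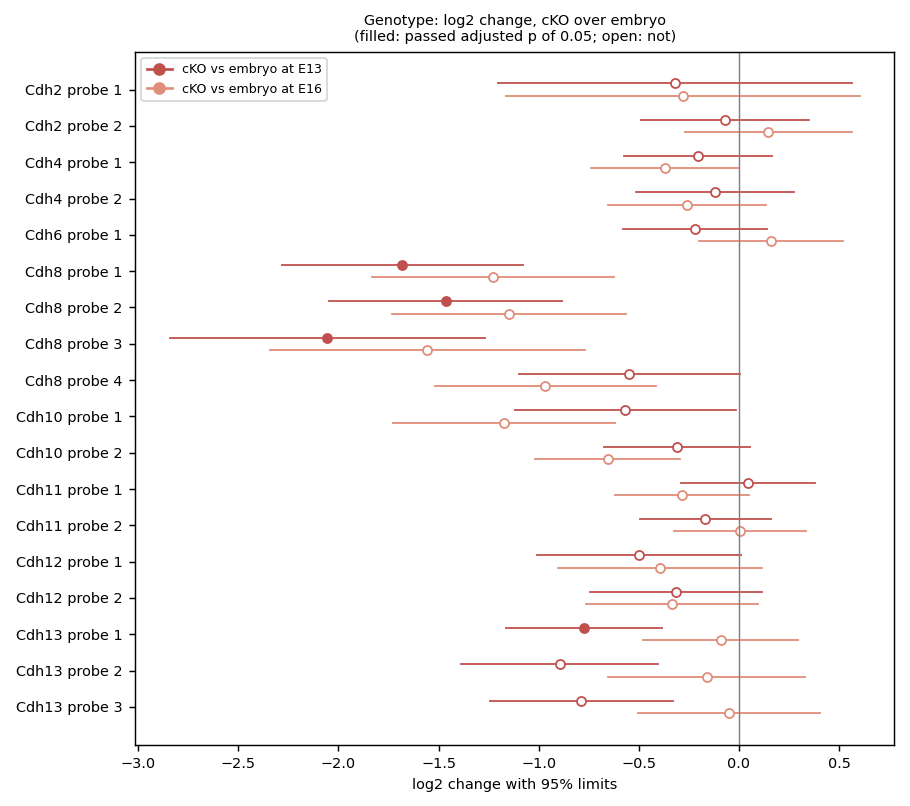
Change between cKO and embryo (log2, horizontal axis, with 95% limits) for the 18 kept cadherin probes (vertical axis) at E13 and at E16. Filled points passed an adjusted p of 0.05. At E13 Cdh8 probes 1 to 3 and Cdh13 probe 1 are filled, and at E16 no point is, although the Cdh8 and Cdh10 limits lie below 0.

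Whether the difference between cKO and embryo changed with stage was tested by the interaction of stage and genotype, which 0 of 18 cadherin probes passed, with 3 at an unadjusted p under 0.05 by limma, all of Cdh13, as had 654 of all 20498. Over all kept probes 0.00488% were higher, 0.00488% lower and 0.00976% passed in either direction. The stage change of Cdh13 in cKO exceeded that in embryo by 0.68, 0.74 and 0.74 for its probes 1, 2 and 3 (95% limits 0.13 to 1.23, 0.039 to 1.43 and 0.095 to 1.38), with an adjusted p of 1 each. For Cdh8 probe 1 the difference was 0.45 (-0.40 to 1.30) and for Cdh10 probe 1 it was -0.61 (-1.39 to 0.18).

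Between E13 and E16 the embryo samples gained several cadherins. Of the 18 probes 10 were higher at E16 and 0 lower, spread over Cdh4, Cdh8, Cdh10 and Cdh12. Over all kept probes 9.72% were higher, 10.7% lower and 20.4% called in either direction. The median change was 0.82 (log2) for the cadherin probes and -0.0040 for all.

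Cdh12, a type II cadherin, passed on both probes. Its probe 1 read 6.45, 6.35, 7.17, 7.22 and 7.51 in E16 embryo, against a lowest of 4.81, a median of 5.25 and a highest of 5.87 in E13 embryo. It was above background on 5 of 5 arrays at E16 and 1 of 6 at E13, the groups did not overlap, and the fitted change was 1.64 ± 0.25 (adjusted p = 2.4e-05), with no fold given against a group mostly below background. Cdh12 probe 2 gave 1.38 ± 0.21 (adjusted p = 2.3e-05).

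Cdh10 probe 1 was 7.32 to 7.97 in E16 embryo and 6.13 to 6.49 in E13 embryo, without overlap (1.25 ± 0.27, 2.38-fold higher, adjusted p = 0.0012). Cdh10 probe 2 passed (0.53 ± 0.18, adjusted p = 0.033), but it was above background on 2 of 5 arrays at E16 and 0 of 6 at E13, so no fold is given.

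Cdh8 rose on all 4 kept probes. Probe 1 was 8.70 to 9.0 in E16 embryo, against 7.59 to 8.08 in E13 embryo, and the changes were 1.03 ± 0.29, 1.00 ± 0.28, 1.08 ± 0.38 and 1.22 ± 0.27 for probes 1 to 4 (adjusted p = 0.013, 0.013, 0.047 and 0.0016). The call of probe 3 was lost when any 1 of 8 of the 11 arrays was left out (adjusted p between 0.034 and 0.13), and that of Cdh10 probe 2 with any 1 of 7 (0.019 to 0.11).

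Cdh4, the type I R-cadherin, read 12.64, 12.44, 12.62, 13.01 and 12.60 for probe 1 in E16 embryo, against 11.50 to 11.83 in E13 embryo. The groups did not overlap for either probe, and the changes were 1.04 ± 0.18 and 0.99 ± 0.19 (2.06- and 1.98-fold higher, adjusted p = 1.2e-04 and 4.7e-04). Cdh2, Cdh6, Cdh11 and Cdh13 did not pass. Cdh13 probe 1 changed by -0.065 (95% limits -0.45 to 0.32), Cdh6 by -0.30 (-0.66 to 0.059) and Cdh2 probe 1 by 0.66 (-0.22 to 1.54), the last above background on 3 of 5 E16 and 1 of 6 E13 arrays.

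In cKO too, Cdh4, Cdh8 and Cdh12 were higher at E16. The calls differed from those in embryo for 4 probes, Cdh10 probes 1 and 2 (passed in embryo), and Cdh11 probe 1 and Cdh13 probe 1 (passed in cKO), and the interaction passed for none of them. Of the 18 probes 9 were higher at E16 and 1 lower, against 10.2% and 11.3% of all kept probes and 21.5% in either direction. The median change was 0.68 (log2) for the cadherin probes and 0.010 for all. The embryo and cKO stage comparisons share no arrays.

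Cdh12 probe 1 was 5.77, 6.43 and 7.38 as lowest, median and highest in E16 cKO, against 4.65 to 5.13 in E13 cKO, where 0 of 5 arrays were above background. It was at least 1.74-fold higher (fitted change 1.74 ± 0.25, adjusted p = 8.7e-06), a bound set against the dimmest signal above background, and probe 2 was at least 1.43-fold higher (adjusted p = 2.4e-05). Cdh8 probes 1, 2 and 3 changed by 1.48 ± 0.29, 1.31 ± 0.28 and 1.58 ± 0.38 (adjusted p = 5.1e-04, 0.0012 and 0.0036). Only 1 of the 6 E16 cKO arrays, array 3, exceeded all E13 cKO arrays for these probes, and array 2 of E13 cKO exceeded the other 5. Cdh8 probe 4 passed (0.80 ± 0.27, adjusted p = 0.033) with 2 of 6 arrays above background at E16 and 0 of 5 at E13, and it lost the call when any 1 of 6 arrays was left out. Without array 2 of E13 cKO and array 3 of E16 cKO, 10 probes were higher and 0 lower, and Cdh8 probes 1, 2 and 3 changed by 1.77 ± 0.13, 1.52 ± 0.14 and 1.88 ± 0.24 (adjusted p = 7.4e-10, 1.6e-08 and 2.6e-06). In that fit Cdh11 probe 1 did not pass (adjusted p = 0.064) and Cdh13 probe 3 did (0.67 ± 0.23, adjusted p = 0.048). Leaving out these arrays was a choice made after seeing the data. They held the highest values of their groups for Cdh8 probes 1, 2 and 3, so the spread narrowed.

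Cdh4 rose on both probes in cKO as well (0.88 ± 0.18 and 0.85 ± 0.19, adjusted p = 7.6e-04 and 0.0020), with all 6 E16 arrays above all 5 E13 arrays. Cdh10 probe 1 was 5.62 to 7.91 in E16 cKO and 5.25 to 6.30 in E13 cKO, and its change of 0.65 ± 0.27 did not pass (adjusted p = 0.088). Cdh13 probe 1 was 8.40, 8.89 and 9.03 as lowest, median and highest in E16 cKO, against 7.73 to 8.88 in E13 cKO. It was higher by 0.62 ± 0.19 (adjusted p = 0.020). This call was lost without array 1 of E13 cKO (adjusted p up to 0.079) and with arrays scaled to a common median (0.064). Cdh13 probes 2 and 3 gave 0.47 ± 0.24 and 0.54 ± 0.22 (adjusted p = 0.17 and 0.086). The lower call was Cdh11 probe 1 (-0.51 ± 0.16, adjusted p = 0.024), which was below background on all 11 arrays and so has no fold. That call was lost without array 4 of E13 cKO, or without array 3 or array 4 of E16 cKO (adjusted p up to 0.079).

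In both stage comparisons Tbr2-lineage progenitor markers fell with age, 5 of 6 in embryo and 3 of 6 in cKO, with overlapping sums of 11389 to 13016 in E16 embryo and 11502 to 16483 in E13 embryo, and of 11319 to 20644 in E16 cKO and 13966 to 20241 in E13 cKO. Thalamus and habenula genes were lower for 3 of 9 in embryo and 4 of 9 in cKO, and choroid plexus and hem genes for 2 of 3 and 3 of 3, with 0 higher. Hba-a1, a haemoglobin gene, was higher in embryo (median signal 1184 at E16 and 272 at E13). Cortical excitatory neuron markers were 1 higher and 3 lower of 7 in embryo (27281 to 33059 at E16, 28053 to 36142 at E13) and 3 higher and 0 lower in cKO (23900 to 33657 at E16, 21462 to 28678 at E13). The part of these shifts in the cadherin values was not tested.

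**Figure D4:**
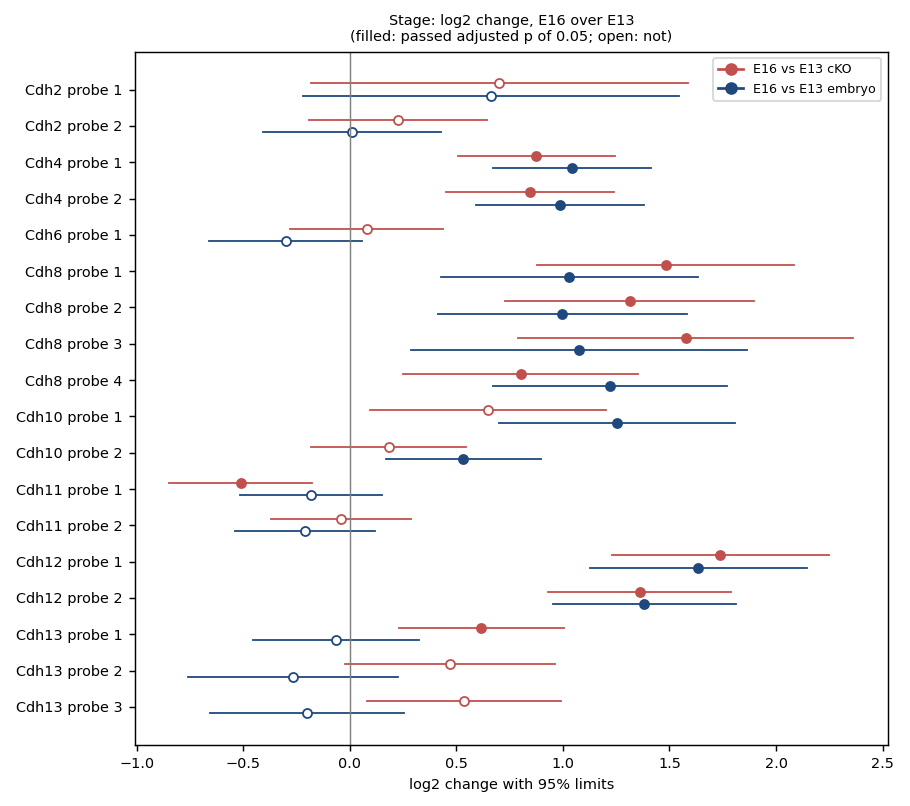
Change between E16 and E13 (log2, horizontal axis, with 95% limits) for the 18 kept cadherin probes (vertical axis) in cKO and in embryo. Filled points passed an adjusted p of 0.05. Cdh4, Cdh8 and Cdh12 are filled in both, Cdh10 in embryo, and Cdh13 probe 1 and Cdh11 probe 1 (the lower call) in cKO, and the limits of the pairs overlap.

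The sorted P2 neurons differed from the embryo samples in age, in sorting and in the table they came from, and these cannot be told apart. Against E16 embryo, 10 of the 18 cadherin probes were higher and 2 lower, when 28.5% of all kept probes were higher and 40.8% lower (69.3% in all). Against E13 embryo, 14 were higher and 1 lower, when 30.0% were higher and 41.5% lower (71.5% in all). Median changes of the cadherin probes were 0.69 and 1.15 (log2), against -0.16 and -0.15 over all kept probes. Both comparisons use the same P2 arrays. The higher counts and the medians include Cdh10 probe 2 and both kept Cdh11 probes. These passed the filter on dim probes only through the P2 arrays, so they had to be high there to be tested. With each table normalised separately the balance of all probes turned: 13427 were higher and 1992 lower against E16, with 16 cadherin probes higher and 1 lower, and 13478 were higher and 2403 lower against E13, with 17 cadherin probes higher and 0 lower.

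Cdh2, the N-cadherin of neuroepithelial and synaptic contacts, was 7.75, 7.43, 7.77, 7.88 and 8.24 for probe 1 in P2 neurons, against 5.26, 5.91, 5.63, 6.75 and 7.09 in E16 embryo. The groups did not overlap and the fitted change was 1.68 ± 0.45 (adjusted p = 0.0017), with 5 of 5 P2 and 3 of 5 E16 embryo arrays above background. Against E13 embryo, where 1 of 6 arrays was above background, it was 2.35 ± 0.43 (adjusted p = 2.5e-05). Its probe 2 was dim, with 4 of 5 P2 arrays above background, and did not pass in either comparison (adjusted p = 0.13 and 0.10). It did pass in both under other normalisations. With arrays scaled to a common median it gave 0.63 against E16 and 0.62 against E13 (limma adjusted p = 0.0033 and 0.0024). With each table normalised separately it gave 1.32 and 1.34 (adjusted p = 1.2e-06 and 4.3e-07).

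Cdh4 was the member that was lower. Probe 1 was 11.65, 11.70, 11.66, 11.69 and 11.69 in P2 neurons, against 12.44 to 13.01 in E16 embryo (-0.98 ± 0.19, adjusted p = 5.0e-05) and 11.50 to 11.83 in E13 embryo (0.06 ± 0.18, adjusted p = 0.78). Probe 2 was 7.31, 7.01, 7.06, 7.87 and 7.75 in P2 neurons, below every embryo array (-1.84 ± 0.20 against E16, -0.86 ± 0.19 against E13; adjusted p = 8.8e-09 and 2.9e-04). With each table normalised separately, the median of all probes moved to 0.68 and 0.69, Cdh4 probe 1 against E16 was -0.32 (adjusted p = 0.14), and probe 2 against E13 turned to 0.080 (adjusted p = 0.71).

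Cdh8 was highest at P2 for its brightest probe, with 9.58, 9.74, 9.61, 9.75 and 9.80, against 8.70 to 9.0 in E16 embryo (0.85 ± 0.31, adjusted p = 0.016). Probes 2 and 4 also passed against E16 (0.72 ± 0.30 and 0.67 ± 0.28, adjusted p = 0.034 and 0.036), and lost the call when any 1 of 6 and 5 arrays was left out. Probe 3 did not differ beyond its spread (0.023, 95% limits -0.80 to 0.85). Against E13 embryo the 4 probes were higher by 1.88, 1.72, 1.10 and 1.89 (adjusted p = 2.6e-06, 6.3e-06, 0.013 and 6.2e-07).

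The 2 kept Cdh10 probes disagreed. Probe 2 was 8.33, 8.32, 7.82, 7.69 and 7.74 in P2 neurons, against 5.92, 5.14, 5.75, 5.30 and 5.50 in E16 embryo, a fitted change of 2.46 ± 0.19 (adjusted p = 8.5e-12) with 2 of 5 E16 embryo arrays above background. It was at least 4.81-fold higher than in E13 embryo, where no array was above background. This probe passed the filter on dim probes only through the P2 arrays, so that it had to be high there to be tested. Probe 1 was 7.05 to 7.47 in P2 neurons and 7.32 to 7.97 in E16 embryo, and did not pass (-0.26 ± 0.28, adjusted p = 0.42), although it was higher than in E13 embryo (0.99 ± 0.27, adjusted p = 0.0018). Normalised separately, probe 1 turned to 0.70 against E16 (adjusted p = 0.027). Both probes carry the same annotated transcript, and where they lie in it was not determined.

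**Figure D5:**
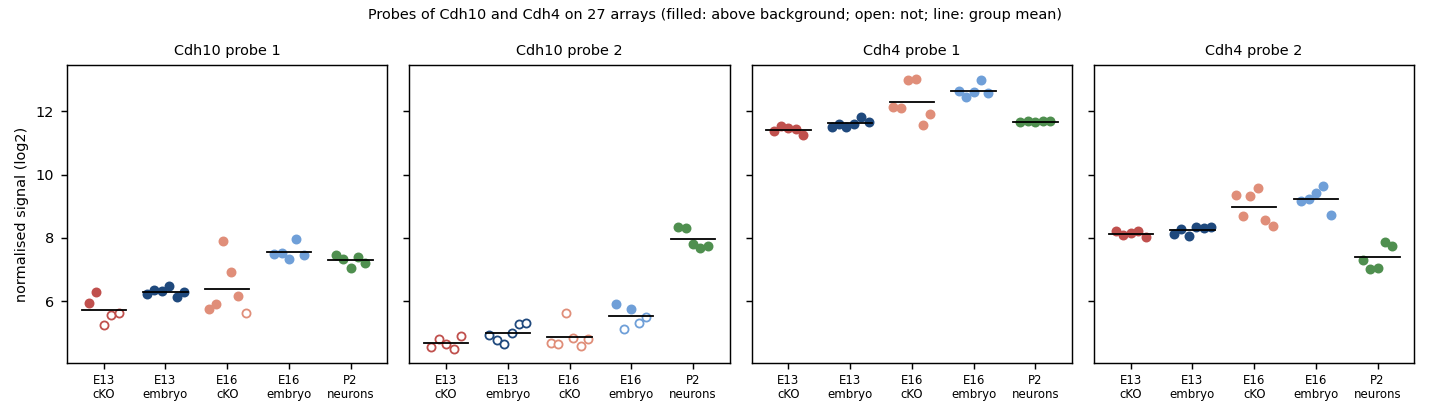
Normalised signal (log2, vertical axis) of the kept probes of Cdh10 and Cdh4 on every array, by group (horizontal axis). Filled points are above background, open points are not, and lines are group means. Cdh10 probe 2 stood at 7.69 to 8.33 in P2 neurons and at or below 5.92 elsewhere, while Cdh10 probe 1 and both Cdh4 probes were not highest in P2 neurons.

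Cdh11, a type II cadherin known from mesenchymal cells and also found in neurons, was above background on all 5 P2 arrays for both kept probes, at 5.99 to 6.58 and 6.25 to 6.56. Outside P2, 1 E13 embryo array was above background for probe 1 and none for probe 2. Against E16 embryo the probes were at least 1.48- and at least 1.52-fold higher (adjusted p = 1.3e-06 and 2.3e-08). Both passed the filter on dim probes only through the P2 arrays, so that they had to be high there to be tested.

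Cdh13 was higher at P2 on all 3 probes. Probe 1 was 9.80, 10.08, 9.77, 10.13 and 9.96, against 9.10, 9.07, 8.90, 8.65 and 8.82 in E16 embryo, and the changes were 1.04 ± 0.20, 1.47 ± 0.25 and 0.75 ± 0.23 (adjusted p = 4.5e-05, 1.1e-05 and 0.0058). Against E13 embryo they were 0.97, 1.20 and 0.55 (adjusted p = 5.4e-05, 7.7e-05 and 0.030), and the call of probe 3 was lost when any 1 of 3 arrays was left out. Cdh12 did not pass between P2 and E16 embryo (-0.045 ± 0.26 and 0.31 ± 0.22), and normalised separately its probe 1 turned to 0.96 (adjusted p = 0.0013). Its probe 2 passed against E16 with median scaling (0.66, limma adjusted p = 0.0071) and with each table normalised separately (1.33, adjusted p = 2.3e-06). Cdh12 was higher at P2 than in E13 embryo by 1.59 and 1.69 (adjusted p = 2.6e-06 and 6.4e-08). Cdh6 passed in neither comparison (0.35, 95% limits -0.022 to 0.73 against E16, and 0.053, -0.31 to 0.41 against E13). This depended on the normalisation. Against E16, Cdh6 passed with arrays scaled to a common median (0.69, limma adjusted p = 8e-04) and with the series matrix values (0.53, adjusted p = 0.032). With each table normalised separately it passed against E16 (1.36, adjusted p = 2e-07) and against E13 (1.05, adjusted p = 5.3e-06).

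The sorted neurons also carried markers of other cells. All 5 kept endothelial genes (Pecam1, Cldn5, Flt1, Tek and Cdh5) were higher than in E16 embryo, with summed linear signals of 2650 to 3857 in P2 neurons and 125 to 150 in E16 embryo, where none was above background. All 5 microglial genes were higher, with sums of 1739 to 2609 in P2 neurons and 154 to 194 in E16 embryo, as were all 3 kept meningeal genes (Col1a2, Dcn and Foxc1), with 860 to 2030 in P2 neurons and 79.6 to 102 in E16 embryo. Pecam1, Tek, Tyrobp, C1qa and Col1a2 were above background on no embryonic array. These genes passed the filter on dim probes only through the P2 arrays, so they had to be high there to be tested. Among the embryonic groups, Cldn5, Flt1, Cdh5 and Foxc1 were above background only in E13 cKO. Of 3 kept oligodendrocyte-lineage genes 2 were higher, with sums of 912 to 12223 in P2 neurons (median 1880) and 171 to 219 in E16 embryo (median 206). Of 3 kept choroid plexus and hem genes 2 were higher (Ttr and Rspo2), with sums of 1888 to 18848 in P2 neurons (median 7491) and 130 to 172 in E16 embryo (median 133). Radial glia genes were 2 higher and 3 lower of 7, with sums of 1743 to 18163 in P2 neurons (median 3143) and 2421 to 2856 in E16 embryo (median 2602). Tbr2-lineage progenitor genes were 0 higher and 6 lower of 6, and thalamus and habenula genes 3 higher and 3 lower of 9. Interneuron genes were 1 higher and 0 lower of 5, and astrocyte genes 1 higher and 0 lower of 2. Cortical excitatory neuron markers were 2 higher and 5 lower of 7, with sums of 14574 to 19267 in P2 neurons and 27281 to 33059 in E16 embryo. The part of these cells in the P2 values of Cdh2, Cdh11, Cdh13 and the other cadherins was not tested.

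Of the 22 probes, 4 were not kept. Cdh8 probe 5 was above background on 4 of 5 P2 arrays and on none of the 22 others. Cdh8 probe 6, Cdh10 probe 3 and Cdh11 probe 3 were below background on all 27 arrays. By RefSeq, Cdh8, Cdh11 and Cdh13 lie on mouse chromosome 8, Cdh6, Cdh10 and Cdh12 on chromosome 15, Cdh4 on chromosome 2 and Cdh2 on chromosome 18.

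Order across the 5 groups differed by gene. The E13 cKO group had the lowest mean for probe 1 of Cdh2, Cdh4, Cdh8, Cdh10, Cdh12 and Cdh13, and P2 the highest for probe 1 of Cdh2, Cdh6, Cdh8, Cdh11 and Cdh13. Probe 1 of Cdh2 and of Cdh12 was above background on at most 1 array of each E13 group. For these probes the order of the E13 groups was not measurable. For Cdh8 probe 1 the order from low to high was E13 cKO, E16 cKO, E13 embryo, E16 embryo and P2. Its neighbours E16 cKO (7.62 ± 0.47, SD, n = 6) and E13 embryo (7.82 ± 0.19, SD, n = 6) lay within their spread. Cdh6 moved least in the reported normalisation, with group means between 6.70 and 7.05.

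Other members of the adhesion system, each represented by its brightest kept probe, were read from 4 lists, and 0 genes of any list passed between cKO and embryo at E13 or at E16, or in the interaction. Their counts are to be read against all kept probes. With stage, 9.72% of these were higher and 10.7% lower in embryo, and 10.2% and 11.3% in cKO. At P2, 28.5% were higher and 40.8% lower against E16, and 30.0% and 41.5% against E13. Genotype calls made up 1.04% at E13 and 0.283% at E16, and interaction calls 0.00976%. In lists this short, 0 calls are near those shares. Of 6 kept other cadherins (of 15 listed), 2 were lower and 0 higher at E16 than at E13 in embryo and likewise in cKO. These were Cdh7 (-1.77 ± 0.26 in embryo, adjusted p = 1.3e-05, and -1.48 in cKO) and Cdh22, whose E16 signal in embryo was not above background and for which no size is given (adjusted p = 7.7e-04 in embryo). At P2, 4 of the 6 were higher and 2 lower than in E16 embryo, and 2 higher and 4 lower than in E13 embryo. Cdh5, the cadherin of endothelial junctions, was at least 3.34-fold higher at P2 than in E16 embryo. No array of E13 embryo, E16 embryo or E16 cKO had Cdh5 above background. It could thus pass the filter on dim probes only through P2 or E13 cKO arrays, so its call at P2 is in part set by the filter. Cdh20, at least 1.17-fold higher at P2 than in E16 embryo, was likewise above background on no E13 or E16 embryo array.

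Of 14 kept catenins and junction proteins (of 18 listed), 2 were higher and 0 lower at E16 in embryo, and 1 was higher and 1 lower in cKO. The delta-catenin gene Ctnnd2, which binds the cadherin tail in neurons, was higher by 0.65 ± 0.12 in embryo and 0.55 ± 0.12 in cKO (adjusted p = 2.3e-04 and 0.0012). Ctnnal1 was higher by 0.38 in embryo and Arvcf was lower in cKO (-0.60 ± 0.19, adjusted p = 0.022). At P2, 4 were higher and 7 lower than in E16 embryo and 5 higher and 7 lower than in E13 embryo, among them Pkp4 (1.59), Vcl (1.35) and Ctnnd1 (-1.39) against E16 and Ptprf (-1.62) against E13.

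Of 8 kept processing enzymes (of 10 listed), 2 were higher at E16 in embryo and 1 in cKO, with 0 lower in both. Furin, a protease that cuts cadherin precursors, was higher by 0.71 ± 0.12 in embryo and 0.57 ± 0.12 in cKO (adjusted p = 6.5e-05 and 6.7e-04). Psen2 was higher by 0.45 in embryo. At P2, 3 were higher and 2 lower than in E16 embryo and 4 higher and 3 lower than in E13 embryo, with Mmp9 (1.28) and Adam10 (0.89) higher and Adam17 lower (-0.51) against E16. Adam17 turned to 0.40 with each table normalised separately.

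Of 10 kept partner genes (of 16 listed), 5 were higher and 1 lower at E16 in embryo, and 4 higher and 1 lower in cKO. Fgfr2, a receptor of the family that N-cadherin engages, was higher by 1.72 ± 0.19 in embryo, and Gria2, an AMPA receptor subunit, by 1.39 in embryo and 1.76 in cKO. Reln, the secreted protein of Cajal-Retzius cells, was lower (-1.54 ± 0.31 in embryo and -2.30 in cKO), and Fgfr1 was higher by 1.28 in cKO. At P2, 5 were higher and 3 lower than in E16 embryo and 7 higher and 1 lower than in E13 embryo, among them Reln (2.93) and Nectin3 (2.79) against E16 and Nectin3 (3.18), Reln (1.39) and Dab1 (1.27) against E13.

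Genes with the most similar pattern were found by the root mean square difference of mean-centred log2 values over the 27 arrays, 1 probe per gene, for each member whose group means spanned at least 1. For Cdh8 these were Ryr3 (0.39), Pcdh20 (0.47) and Cxcl12 (0.55), against a root mean square of 1.25 for Cdh8 itself. For Cdh12 they were Gramd1b (0.34), Jakmip1 (0.38) and Rbfox1 (0.41), against 0.95. For Cdh10 they were Dtx1 (0.39), Sema3a (0.40) and Csf1 (0.42), against 0.78, and for Cdh4 Ppp2r1b (0.24), Gfpt2 (0.26) and Sema3f (0.27), against 0.54. Cdh13 was nearest to Tmem87b (0.27), Napb (0.29) and Slc44a1 (0.30), against 0.61, and Cdh11 to Acot13 (0.27), Mmd (0.29) and Tppp (0.29), against 0.54. For Cdh2 the nearest were Slc6a11 (0.61), Arntl (0.65) and Qpct (0.66), against 1.13. No limit for a close pattern was set. These arrays share groups and tables, so the values are descriptions.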

How the data were processed

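The 27 mouse samples were hybridised as biotin-labelled cRNA to Illumina BeadChips. Per the file headers, the authors deposited non-normalised intensity values per probe, from -50.8 to 48266, with a detection p-value beside each, in 3 tables. The authors also deposited log2 values of 12377 probes as a series matrix, whose columns share a median of 8.95. How the scanner data were exported and the matrix normalised is not given in the sources used here.

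All arrays were processed together in R 4.3.3 with limma 3.58.1: normexp background correction (negative controls inferred through detection p-values; offset 16), quantile normalisation and log2. Probes with a detection p under 0.01 on at least 5 arrays were kept. A linear model with 1 mean per group and empirical Bayes moderation gave 7 contrasts, adjusted by Benjamini-Hochberg over all 20498 kept probes at 0.05. Probe symbols came from GEO's platform annotation: 34885 probes had 1 symbol, 18 several and 10378 none. Every probe of the 8 genes is named, with up to 3 passing genes per list and comparison and the 3 genes most like each member. Members and lists were chosen with earlier results of these data known. Groups came from the sample titles, since the age field of E16 embryo repeats E13 and some cKO descriptions repeat those of P2. Signal columns give the group but no replicate number, so arrays are numbered by column order, as a name only. The column names also hold a number whose meaning is not given. Many of these are adjacent between embryo and cKO columns of a stage. Pairing by them was not tried, and all genotype comparisons are unpaired. No columns held identical values (highest rank correlation 0.959). The fit was tested on simulated data. Alternatives covered background correction, normalisation, source of values, filters, probe choice, moderation, arrays in the fit and leaving out arrays. Chromosomes are from RefSeq, and the files name no genome build.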

Additional observations from a re-analysis of the deposited data

Results flagged for a closer look

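A gap test within each group (Dixon's, at its 95% value) was run on 90 groups of values, 18 probes in 5 groups, and marked 6 arrays' values as standing far from the rest of their group. Chance marks about 1 in 20 groups. Array 2 of E13 cKO was marked for 3 Cdh8 probes: probe 1 at 7.98 (the other 4 at 5.42 to 6.03), probe 2 at 7.78 (5.56 to 5.78) and probe 3 at 7.68 (4.56 to 5.18). Array 3 of E16 cKO was marked for Cdh8 probe 2 at 8.48 (the other 5 at 6.96 to 7.45) and for Cdh10 probe 2 at 5.62 (4.59 to 4.83), where no array of the group was above background. Array 4 of E13 cKO was marked for Cdh11 probe 1 at 5.72 (5.29 to 5.35), a probe below background on every array of the group. The 3 Cdh8 probes share a gene and so are not independent marks.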

How the results depend on the processing

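The number of cadherin probes passing stayed within 1.5 times its value of 10 (E16 against E13 embryo), 10 (E16 against E13 cKO), 4 and 0 (cKO against embryo at E13 and E16), 0 (interaction), 12 (P2 against E16) and 15 (P2 against E13) under every alternative except the following, whose causes were not tested unless fewer probes or arrays were fitted. With arrays scaled to a common median, 1 passed between genotypes at E16, and with each table normalised separately 4 did. With the series matrix values (8 cadherin probes) 4, 5 and 6 passed for the embryo stage, cKO stage and P2 against E13 comparisons. With 1 probe per gene (8 probes) 4, 5, 2, 1, 5 and 6 passed for all but the interaction, in the order above. Fitted on the compared groups alone, 0 passed between genotypes at E13 (11 at an unadjusted p under 0.05 by limma). Without array 2 of E13 cKO and array 3 of E16 cKO, 7 passed at E13 and 6 at E16. Leaving out 1 array at a time gave 8 to 10, 8 to 13, 2 to 6, 0 to 6, 0 to 0, 10 to 14 and 14 to 15 probes in that order. The 6 at E16 came without array 3 of E16 cKO, where 4 passed without array 2 of E13 cKO. The 6 at E13 came without array 2 of E13 cKO or array 1 of E13 embryo, and the 2 at E13 without array 1 or 4 of E13 cKO, when Cdh8 probe 2 was lost, while Cdh8 probes 1 and 3 passed in each such fit.

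Among changes that passed in the reported or the alternative fit, directions reversed only with each table normalised separately, against E16 for Cdh10 probe 1 (0.70), Cdh12 probe 1 (0.96) and Adam17 (0.40), and against E13 for Cdh4 probe 2 (0.080) and Cdh7 (0.23). That setting moved the median of all probes in the P2 comparisons to 0.676 and 0.689, and the share of higher calls to 87.1% and 84.9%, against 41.1% and 42.0%. Median scaling gave 51.4% for P2 against E16, and 33.7% against 47.4% for the cKO stage comparison. For genotype, separate tables gave 28.1% against 45.8% at E13 and 30.0% against 51.7% at E16, where the matrix gave 20.0%.

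Replicate numbers, which the series matrix columns carry, did not pair the samples in every pair of groups. Correlations of same-numbered deviations ran from -0.219 to 0.509 over 6 pairs of groups. At most 3 of 5 samples matched their own number best. Between E16 cKO and E16 embryo the correlations ran from 0.0623 to 0.509 with 3 of 5 matched, so this check cannot exclude pairing. Numbers in the signal column names were not tried for pairing. With the replicate number as a block, on matrix values, 4, 5, 2, 0, 0, 8 and 6 probes passed. Slide as a block was not run, since the columns name no slide. Of the values of single genes, 3451 kept their call, 49 gained and 82 lost it.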
